A study of Tursiops truncatus with 31 samples.

Results

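Proteasome transcripts were examined in the blood of bottlenose dolphins (Tursiops truncatus). The genes were chosen by name, as every gene whose symbol starts with PSMA, PSMB, PSMC, PSMD, PSME, PSMF or PSMG followed by a number. This rule found 43 of the 9610 genes in the genome-guided expression table. They comprised 5 members of the immune form (PSMB8, PSMB9, PSMB10, PSME1 and PSME2) and 38 other members. The symbols PSMA1, PSMA2, PSMA8, PSMB11 and PSMD9 were not analysed here from that table. Whole blood was drawn in different months from 4 managed animals, and all RNA was depleted of globin transcripts with RNase H before sequencing. The 31 libraries came from the males Hua (5 years, 8 libraries) and Kai (17 years, 7 libraries) and the females Keo (12 years, 9 libraries) and Pele (28 years, 7 libraries). Summer was July to September (8 libraries) and winter was December and February (8 libraries), and the other 15 libraries were used in the comparisons of sexes, animals and the annual cycle. The labels name no treatment, so each comparison is of sex, individual or time of year. With 2 animals of each sex, sex cannot be told apart from age or individual.

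The proteasome degrades proteins tagged with ubiquitin. Its barrel, the 20S core, is built of alpha subunits (PSMA genes), which form the gates, and beta subunits (PSMB genes), of which PSMB6, PSMB7 and PSMB5 carry the caspase-like, trypsin-like and chymotrypsin-like cutting sites. The 19S cap recognises ubiquitin and unfolds substrates with ATPases (PSMC genes) and other subunits (PSMD genes). In mammals, interferon gamma induces PSMB9, PSMB10 and PSMB8, which take the places of PSMB6, PSMB7 and PSMB5 in the immunoproteasome, together with PSME1 and PSME2, the alpha and beta subunits of the 11S cap. Leukocytes are known to hold immunoproteasome without stimulation, and its peptides are carried by TAP1 and TAP2 to MHC class I molecules. In the RefSeq gene table of the dolphin assembly mTurTru1.mat.Y, which is another build than that of the expression values, the protein-coding genes PSMB9, TAP1, PSMB8 and TAP2 follow one another in this order. PSME2 and PSME1 are there separated by EMC9, and IRF9 lies close to PSME2.

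Values are FPKM, fragment numbers per transcript length and library size. Levels of different genes can be set side by side, but they depend on the quantification, as described below for PSMB6. FPKM summed to between 1122500 and 1625170 per library, and library depth is unknown. The median of all genes was 0.34 higher in females than in males on the log2(FPKM + 1) scale. Comparisons were therefore repeated after scaling each library by the median of its ratios to the gene-wise means (factors from 0.590 to 1.64), and these values are called scaled. The July and August libraries of Pele stood apart from the other 29. The summed FPKM of 24 interferon response genes (of 39 listed) was 1912 and 2640 in these 2 libraries and 246 to 1048 in the others. Results that rest on them are given with and without them. Libraries of 1 animal are repeated samples of that animal, so p-values over libraries measure spread among samples and not among dolphins. In whole blood, fewer cells of a type and less RNA per cell cannot be told apart.

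The expression table holds only genes with a mean of at least 1 FPKM, so it was fixed in advance that all 43 genes were expressed. Of these genes, 40 were above 1 FPKM in every library. Only PSMG1, PSMG3 and PSMG4 were listed at 0, each in 1 library. The 20S core subunits were the most abundant group beside the immune members. Among the 5 alpha subunits measured, PSMA7 had the highest mean, 179 FPKM, and PSMA3 the lowest, 46.1 FPKM. Among the 7 constitutive beta subunits, PSMB3, which has no cutting site, was highest at 305 FPKM and PSMB2, another subunit without a site, was lowest at 42.4 FPKM, a range of 7.20-fold. The catalytic subunit PSMB5 (ENSTTRG00000001505) averaged 130 ± 45.1 FPKM (SD, n = 31). PSMB7 (ENSTTRG00000012948) averaged 68.3 ± 19.6 FPKM and PSMB6 (ENSTTRG00000000566) 57.1 ± 18.97 FPKM. Transcripts of the 3 constitutive catalytic subunits were thus not equally abundant.

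The 19S cap was lower. The 6 ATPases had a median of means of 45.5 FPKM, from PSMC4 at 27.5 FPKM to PSMC5 at 149.99 FPKM. The 11 non-ATPase subunits had a median of 31.1 FPKM. PSMD4, a ubiquitin receptor, was highest at 120 FPKM, and PSMD12, a scaffold subunit of the lid, was lowest at 13.7 FPKM. PSMD4 was also the steadiest member in fold terms, with a highest library 1.96 times its lowest. The chaperones that assemble the particle were scarce. PSMD5 and PSMD10, which assist the 19S base, averaged 20.6 and 16.9 FPKM, and the 4 chaperones of the 20S core ran from 12.5 (PSMG4) to 35.3 FPKM (PSMG3). Of the other regulators, PSMF1, known as an inhibitor of the isolated core, averaged 104 FPKM, against 11.9 FPKM for the nuclear cap PSME4 and 9.47 FPKM for PSME3, the nuclear relative of PSME1.

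**Figure D1:**
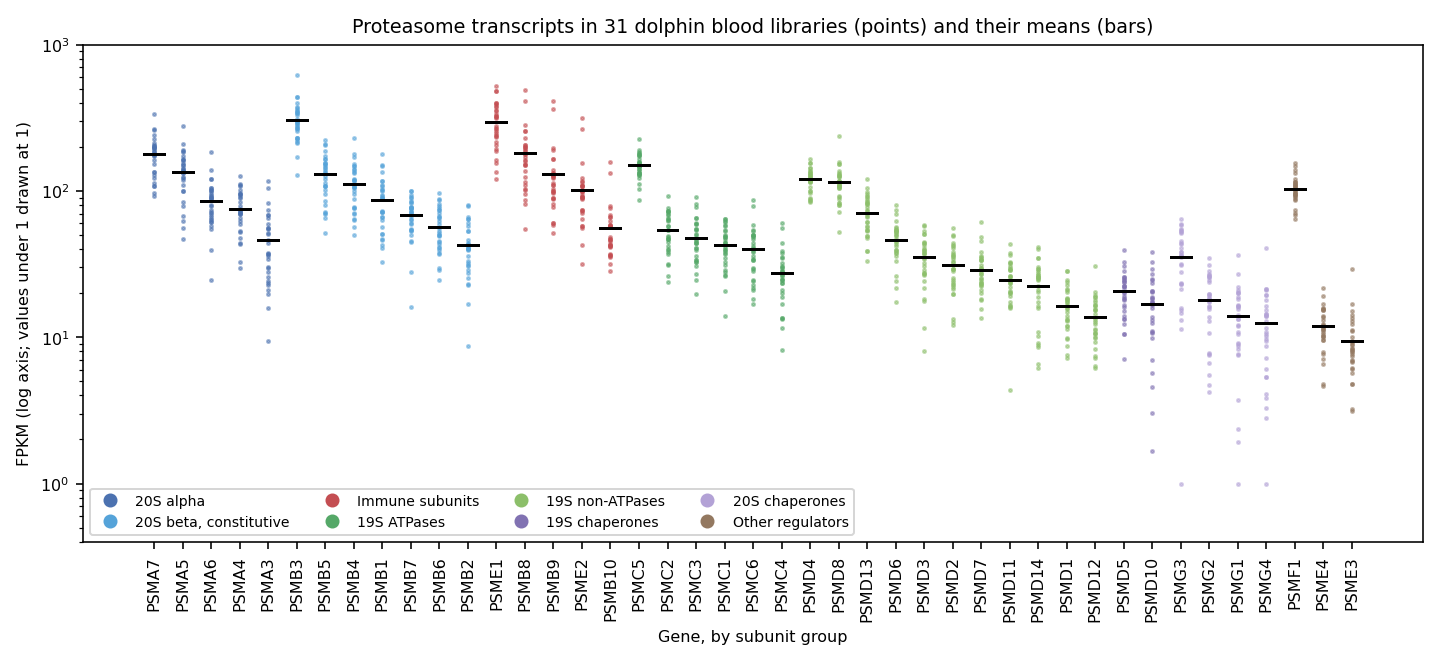
FPKM of the 43 proteasome genes (log axis) in the 31 libraries, grouped by subunit class; points are libraries, with values under 1 drawn at 1, and black bars are means. PSMB3 and PSME1 have the highest means, 305 and 296 FPKM, and PSME3 has the lowest, 9.47 FPKM.

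The immune members were abundant. PSME1 (ENSTTRG00000008620) had the highest mean of the 5, 296 ± 104 FPKM (SD, n = 31), second among all members to PSMB3. PSMB8 (ENSTTRG00000004259), which replaces PSMB5, averaged 182 ± 91.2 FPKM. PSMB9 (ENSTTRG00000004272), which replaces PSMB6, averaged 130 ± 77.9 FPKM. The partner of PSME1 in the 11S cap, PSME2 (ENSTTRG00000008622), averaged 102 ± 56.6 FPKM, and PSMB10 (ENSTTRG00000009256), which replaces PSMB7, had the lowest mean of the 5, 55.8 ± 27.5 FPKM. The 5 genes together held 23.1% ± 4.87 (SD, n = 31) of the FPKM summed over the 43 members, from 18.2% to 43.7%. Without the July and August libraries of Pele the share was 22.0% ± 1.90 (n = 29), and its highest value was 25.6%. PSME1 exceeded PSME2 in all 31 libraries, with a ratio of 3.2 ± 1.24 (SD).

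A ratio of 2 genes within a library does not depend on how libraries are scaled. PSMB9 was above PSMB6 in all 31 libraries, with a ratio of 2.50 ± 1.93 (SD) that ran from 1.02 in the August library of Hua to 9.26 in the July library of Pele. Without July and August of Pele this ratio was 2.04 ± 0.733 and at most 4.09. PSMB8 was above PSMB5 in 24 of 31 libraries, with a ratio of 1.5 ± 0.676 and a range of 0.395 to 3.01. PSMB10 was above PSMB7 in only 6 of 31, with a ratio of 0.869 ± 0.439 and a range of 0.466 to 2.52. The immune transcript was thus the more abundant of its pair for 2 of the 3 sites in most libraries. Over the 6 catalytic genes, PSMB8, PSMB9 and PSMB10 made up 57.0% ± 8.41 of the FPKM, with a lowest value of 41.1% in the July library of Kai. In the authors' second table, made with Cufflinks, the PSMB8/PSMB5 and PSMB10/PSMB7 ratios were close to these (1.43 and 0.866), but the PSMB9/PSMB6 ratio was 7.06. PSMB6 was 5.17 times lower in that table, against 1.72 to 2.91 times for the other 42 members, so the size of the PSMB9/PSMB6 ratio depends on the quantification. Its side of 1 was the same in all 31 libraries of both tables.

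**Figure D2:**
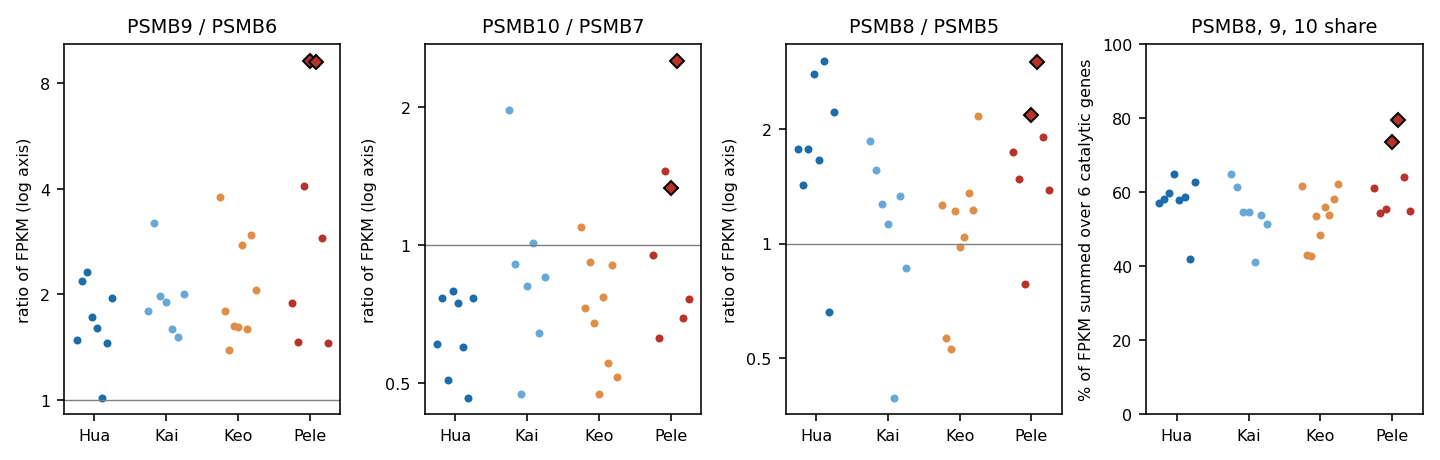
Ratio of each immune catalytic transcript to the constitutive one it replaces (log axes, line at 1), and the percentage of the FPKM of the 6 catalytic genes held by PSMB8, PSMB9 and PSMB10, per library and animal; diamonds are the July and August libraries of Pele. PSMB9/PSMB6 is above 1 in every library, and the immune share reaches 73.5% and 79.6% in the 2 diamonds.

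Individually, Pele had the largest mean immune share of the 6 catalytic genes, 63.3% ± 9.87 (SD), followed by Hua (57.7% ± 6.85), Kai (54.6% ± 7.62) and Keo (53.4% ± 7.26). Without July and August the value of Pele was 58.0% ± 4.33 (n = 5), within the spread of the other animals. The PSMB8/PSMB5 ratio was 1.91 ± 0.752 in Hua and 1.78 ± 0.693 in Pele, against 1.202 ± 0.477 in Kai and 1.15 ± 0.483 in Keo. Without July and August this ratio was 1.46 ± 0.430 in Pele (n = 5), between the means of Hua and Kai. The ranges of all 4 animals overlapped for each of the 3 pairs. PSMB10/PSMB7 did not exceed 0.794 in any of the 8 libraries of Hua.

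The 4 members called among the individuals were immune ones, but their number was close to the background. In the limma F test among the 4 animals, 10.3% of all genes were called (988 of 9610, adjusted p under 0.05), and 4 of the 43 members were called. These were PSME1 (adjusted p = 0.00882), PSMB10 (adjusted p = 0.00988), PSMB8 (adjusted p = 0.0410) and PSMB9 (adjusted p = 0.0482). None of the 38 other members was called, although 12 of them had an unadjusted p under 0.05. The smallest adjusted p among these was that of PSMB5, 0.0551. The median F was 5.48 over the 5 immune members, 1.51 over the 38 others and 1.88 over all genes. PSME2 missed the threshold (adjusted p = 0.121).

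PSME1 ran from 120 to 248 FPKM in Kai (median 194), from 156 to 373 in Keo (median 270.5), from 206 to 486 in Hua (median 323) and from 234 to 518 in Pele (median 392). Kai was thus the lowest of the animals and Pele the highest, with overlapping ranges. PSMB10 ran from 28.4 to 57.8 FPKM in Kai (median 41.8), from 35.4 to 66.6 in Keo (median 42.4), from 35.9 to 62.7 in Hua (median 46.1) and from 57.4 to 159 in Pele (median 77.0). Here the lowest libraries of Pele lay among the highest of the others. PSMB8 had medians of 114 FPKM in Kai (54.9 to 171), 154 in Keo (81.5 to 283), 185 in Hua (101 to 201) and 229 in Pele (160 to 494). PSMB9 had medians of 88.4 FPKM in Kai (59.0 to 129), 104 in Keo (51.3 to 196), 104 in Hua (60.6 to 165) and 139 in Pele (122 to 411). PSME2 had medians of 74.4 FPKM in Kai (42.6 to 101), 90.4 in Keo (58.0 to 109), 100.5 in Hua (31.8 to 117) and 122 in Pele (70.7 to 315). In deposited values, Pele had the highest median of all 5 genes and Kai the lowest. In scaled values, Keo had the lowest mean of PSMB9 (93.9), PSMB10 (41.7) and PSME2 (78.2), below Kai (111, 50.4 and 93.3), and Hua was highest for PSME1.

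Of the constitutive catalytic subunits, PSMB7 had the same order of medians, with Kai lowest and Pele highest, and PSMB5 and PSMB6 did not. PSMB5 averaged 97 ± 31.1 FPKM (SD) for Hua and 112 ± 45.5 FPKM for Kai, against 153 ± 42.0 FPKM for Keo and 155 ± 34.7 FPKM for Pele, so that the females were above the males. PSMB6 was highest in Hua, 66.2 ± 20.1 FPKM, and lowest in Kai, 48.4 ± 13.8 FPKM (adjusted p = 0.491). PSMB7 averaged 53.8 ± 23.1 FPKM in Kai and 80.7 ± 18.2 FPKM in Pele (adjusted p = 0.178).

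The call of PSME1 was the firmest. It held after scaling (adjusted p = 0.0188), where 7.35% of all genes and no other member were called, and scaled means were 339 ± 79.5 in Hua and 333 ± 105 in Pele, against 223 ± 26.6 in Kai and 231 ± 33.9 in Keo. It also held without the July and August libraries of Pele (adjusted p = 0.0309), but not without all of Kai (0.235) or all of Pele (0.0626). PSMB10, PSMB8 and PSMB9 lost their calls after scaling (adjusted p = 0.0779, 0.182 and 0.188) and without these 2 libraries of Pele (0.113, 0.162 and 0.329). PSMB9 also lost its call with Cufflinks values (adjusted p = 0.0542) and with a pseudocount of 0.1 (0.0535), and without all of Pele the 3 genes were at 0.835 (PSMB10), 0.286 (PSMB8) and 0.754 (PSMB9). Leaving out any 1 of the 31 libraries kept the calls of PSME1 and PSMB10, while PSMB8 lost its call in 12 cases and PSMB9 in 18. The count of called members fell to 2 without Hua December, Kai February, Kai April, Kai July, Kai September, Keo August, Pele February, Pele July or Pele September, and rose to 8 without Kai December, where PSMB2, PSMB5, PSMC3 and PSMD2 were called too. With scaling and without the 2 libraries of Pele, PSMD4 was called beside PSME1. The share of all genes called in the fits without 1 library is not given here. Changes in these counts therefore cannot be read as particular to the members.

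**Figure D3:**
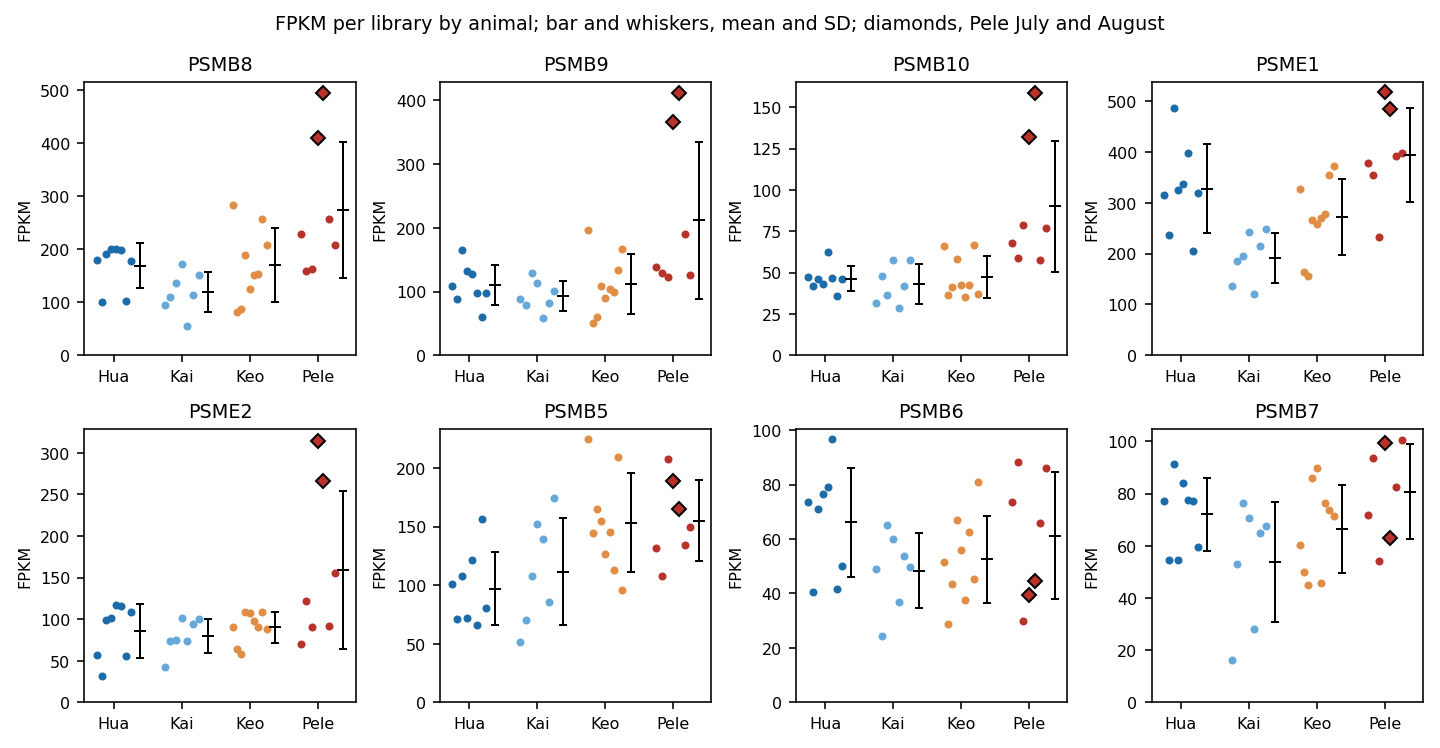
FPKM of the 5 immune members and the constitutive catalytic subunits PSMB5, PSMB6 and PSMB7 per library, by animal; bars and whiskers are means and SD, and diamonds are the July and August libraries of Pele. In these 2 libraries PSMB8, PSMB9, PSMB10 and PSME2 lie above all other libraries, and PSMB5, PSMB6 and PSMB7 do not.

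In the July and August libraries of Pele, the immune transcripts were high and most of the other members were not. These 2 libraries were singled out after their values had been seen, so what follows is a description without a test. PSMB8 was at 411 and 494 FPKM, against 160 to 257 FPKM in the other 5 libraries of Pele and at most 283 FPKM in the other 29. PSMB9 was at 366 and 411 FPKM, against at most 196 FPKM in the other 29 libraries. PSMB10 was at 132 and 159 FPKM, against at most 78.9 FPKM. PSME2 was at 315 and 266 FPKM, against at most 156 FPKM. In all 4 genes, the 2 libraries were the highest of the 31. PSME1, the most abundant of the 5, was at 518 and 484 FPKM, and here a library of Hua reached 486 FPKM. Against the mean of the other 5 libraries of Pele, the mean of the 2 libraries was 2.75-fold for PSMB9, 2.74-fold for PSME2, 2.23-fold for PSMB8, 2.14-fold for PSMB10 and 1.43-fold for PSME1. Of all genes, 6.36% (611 of 9610) were more than 2-fold higher in this comparison, and 4 of the 43 members were, all of them immune members. The highest of the 31 libraries was 1 of these 2 for 10 of the 43 members, namely all 5 immune members and PSMA5, PSMB4, PSMD4, PSMF1 and PSMG3, against 10.1% of all genes (971 of 9610).

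The constitutive counterparts were not raised together in this way. PSMB5 was at 189 and 165 FPKM, within the 108 to 208 FPKM of the other libraries of Pele. PSMB6 was at 39.5 and 44.6 FPKM, below their mean of 68.8 FPKM, and PSMB7 was at 99.4 and 63.1 FPKM around their mean of 80.5 FPKM. Over the 38 other members, the fold ran from 0.513 (PSMG1) to 1.71 (PSMA3), with a median of 0.911. The median was 1.201 for the alpha subunits, 1.06 for the constitutive beta subunits, 0.767 for the ATPases and 0.831 for the non-ATPase subunits of the 19S cap, beside 0.822 over all genes. After scaling, the fold was 1.65 to 3.18 for the 5 immune members, with a median of 1.05 over the 38 others and 0.970 over all genes.

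**Figure D4:**
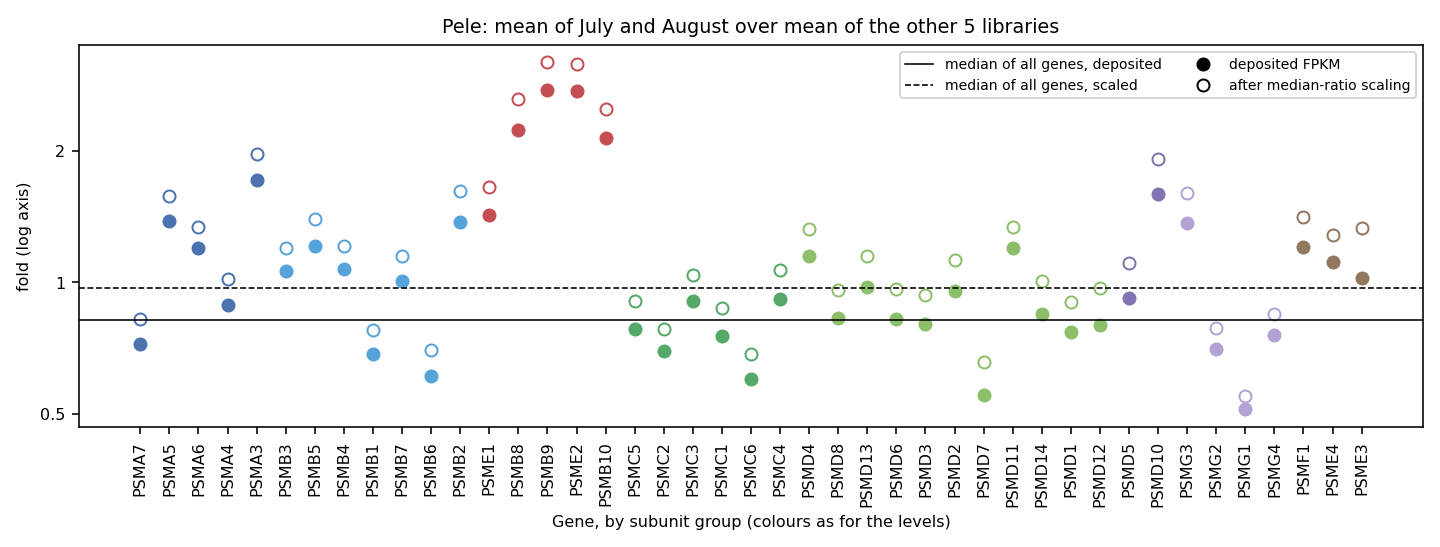
Fold of the mean of the July and August libraries of Pele over the mean of the other 5 libraries of this animal (log axis), for each of the 43 genes, from deposited (filled) and scaled (open) FPKM; lines are medians over all genes. PSMB8, PSMB9, PSMB10 and PSME2 are the 4 genes above 2-fold in deposited values.

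Genes that act beside the immunoproteasome were high in the same 2 libraries. TAP1, a subunit of the peptide transporter, was at 400 and 506 FPKM, against at most 133 FPKM in the other 29 libraries. IRF1, a transcription factor induced by interferon, was at 594 and 759 FPKM, against at most 311 FPKM. The summed FPKM of the 9 MHC class I loading genes was 1156 and 1284, against 590.5 to 877 in the other libraries of Pele. That of the 10 interferon regulators was 2467 and 2866, against 787 to 1536. The 27 partner genes of the proteasome, which include ubiquitin genes, ubiquitin enzymes and the chaperone POMP, had a median fold of 0.823, against 0.822 for all genes.

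Of the marker lists of blood cells, only that of B cells summed to values outside the range of the other libraries of Pele in both July and August, and those of monocytes and neutrophils were above it in July. The 19 T cell markers summed to 530 and 517 FPKM, against 475 to 1268 in the other 5 libraries of Pele, with CD7 listed at 0 in both and CD28 in July. The 10 B cell markers summed to 258 and 183 FPKM, against 295 to 629, with none at 0. The 13 cytotoxic and NK cell markers summed to 451 and 468 FPKM, against 449 to 1236, with NCR1 listed at 0 in both and KLRB1 in August. The 14 monocyte markers summed to 43478 and 26696 FPKM, against 16679 to 37649, with CX3CR1 listed at 0 in August. Nearly all of these sums was LYZ, at 41063 FPKM in July and 25065 FPKM in August, so they say little of the other monocyte markers. The 10 neutrophil markers summed to 12974 and 9594 FPKM, against 6801 to 12502, with MMP8 listed at 0 in both. Most of the July sum was S100A12, S100A8 and S100A9, at 5483, 2323 and 2164 FPKM. The 6 platelet markers summed to 101 and 120 FPKM, against 78.2 to 255, with CLEC1B listed at 0 in July. The 26 erythroid markers summed to 237117 and 238142 FPKM, against 70083 to 246649, with RHAG and CA2 listed at 0 in July and KLF1 in August. Most of these sums was HBB, a target of the globin depletion, at 185520 FPKM in July and 173002 FPKM in August. The genes named at 0 do not stand for their lists. GZMA of the cytotoxic list was at 26.6 and 51.2 FPKM, against at most 44.1 FPKM in the other 29 libraries. CSF3R of the neutrophil list was at 758.5 and 768 FPKM, against at most 753 FPKM. CD68 of the monocyte list was at 599 and 449 FPKM, against at most 388 FPKM. SLC25A37 of the erythroid list was at 119 and 143 FPKM, against at most 107 FPKM. The median fold over the other 5 libraries of Pele was 0.641 for T cell, 0.520 for B cell and 0.531 for cytotoxic markers. It was 1.22 for monocyte, 1.13 for neutrophil, 0.675 for platelet and 0.852 for erythroid markers, beside 0.822 for all genes. The part of cell composition in the immune members' levels was not tested.

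Across libraries, the members varied less than most genes, but they were also more abundant. The SD of the scaled log2 level over the 31 libraries was below the median of all genes, 0.63, for 37 of 43 members and for all 5 immune ones. Its median was 0.50 over the immune members and 0.42 over the 38 others. The median of mean levels was 130 FPKM over the immune members, 44.5 FPKM over the 38 others and 10.1 FPKM over all genes. Genes were not matched by level, so the part of level in the smaller SD was not tested. Variation was greatest in the chaperones of the 20S core, with a median of 1.03. PSMD8, a lid subunit, had the smallest SD, 0.28.

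The 5 immune members moved together, but mainly through the July and August libraries of Pele. Correlations are given as a description over 31 libraries of scaled log2 levels, which share animals, depth and scaling. The 10 pairs of immune members had a median Pearson r of 0.69, from 0.52 to 0.89, against a median of 0.15 over the 703 pairs of the 38 others and 0.19 between immune and other members. Without the 2 libraries of Pele, the median over the immune pairs was 0.23, close to the 0.24 between immune and other members. PSMB8 and PSMB9, with TAP1 between them in the RefSeq table, kept an r of 0.73 (rho = 0.71) over the 29 libraries, and PSMB8 and PSME1 also an r of 0.73 (rho = 0.72). PSME2 then had an r of 0.10 with PSMB8 and of 0.01 with PSMB9. PSMB9, PSMB8 and PSME1 thus stayed together in the remaining libraries while PSME2 and PSMB10 did not. Among the constitutive catalytic subunits, PSMB5 and PSMB6 had an r of -0.47 (rho = -0.54), and PSMB5 had a median r of -0.20 with the other 37 members outside the immune group.

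The genes outside the proteasome with the most similar pattern were named by the highest Pearson r over the 31 libraries, 3 for each immune member. For PSMB8 these were MOV10 (r = 0.79), GIMAP1 (r = 0.77) and TAP1 (r = 0.74). For PSMB9 they were GIMAP4 (r = 0.85), TAP1 (r = 0.83) and UBA7 (r = 0.80), the last known as the enzyme that activates the interferon-induced modifier ISG15. For PSMB10 they were WARS (r = 0.78), C2 (r = 0.77) and IDO1 (r = 0.75). IDO1, an enzyme that degrades tryptophan, was at 37.7 and 298 FPKM in July and August of Pele and at most 2.25 FPKM in the other 29 libraries. For PSME2 they were NMI (r = 0.77), CCRL2 (r = 0.75) and SNX10 (r = 0.75). Without the 2 libraries of Pele, these 12 values of r ran from 0.03 (IDO1) to 0.55 (NMI). PSME1 had other neighbours, the chaperonin subunits CCT4 (r = 0.82) and CCT3 (r = 0.77) and the MHC class II gene HLA-DRA (r = 0.81), and over the 29 libraries these stayed at 0.77, 0.79 and 0.77.

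For the sexes, 13.0% of all genes were called by limma (1252 of 9610), 1162 of them (12.1% of all genes) higher and 0.937% lower in females. Of the members, 2 were called, both higher in females. PSMB5 was at 95.9 to 225 FPKM in females (median 148) and 51.3 to 175 FPKM in males (median 101), with a log2 difference of 0.61 ± 0.16 (SE, adjusted p = 0.0136). PSMD13, a lid subunit, was at 47.7 to 120 FPKM in females (median 82.1) and 33.4 to 91.8 FPKM in males (median 57.4), with a log2 difference of 0.44 ± 0.15 (SE, adjusted p = 0.0464). The libraries of the sexes overlapped for both genes. PSMB5 was called in all 31 fits that left out 1 library and PSMD13 in 10 of them. PSMB5 lost its call without Hua (adjusted p = 0.0724), Keo (0.0891) or Pele (0.0999), and PSMD13 without any 1 animal (0.0826 to 0.256) and with Cufflinks values (0.0968). With animal as a random block, PSMB5 kept its call (adjusted p = 0.0295) and PSMD13 lost it (0.0793). Of the 43 members 39 had a positive difference, with a median of 0.25, which was below the 0.34 of all genes. The 5 immune members had a median difference of 0.45, and the smallest adjusted p among them was 0.0900 (PSMB10). After scaling their median was 0.08, beside 0.04 over all genes, and their smallest adjusted p in limma was 0.829.

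After scaling, 2.41% of all genes (0.593% higher and 1.82% lower in females) and 0 members were called for sex (5 members with an unadjusted p under 0.05). The log2 difference was then 0.24 ± 0.16 (SE, adjusted p = 0.528) for PSMB5 and 0.07 ± 0.12 (adjusted p = 0.846) for PSMD13, and the median over members was -0.12, against 0.04 over all genes. With the means of the 2 females and 2 males as 4 values, limma called 0 members. With 2 against 2 animals an exact permutation test could not pass any usual threshold. The summed FPKM of the 26 erythroid markers had a median of 241019 in males and 154437 in females, and the sum of the 10 neutrophil markers had a median of 6440 in males and 9530 in females. Averaged over the 31 libraries, most of the erythroid sum was HBB (147503 FPKM), a target of the globin depletion. Most of the neutrophil sum was S100A12, S100A8 and S100A9 (3261, 1616 and 1229 FPKM), so it says little of the other neutrophil markers. The part of the erythroid and neutrophil markers in the difference was not tested.

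**Figure D5:**
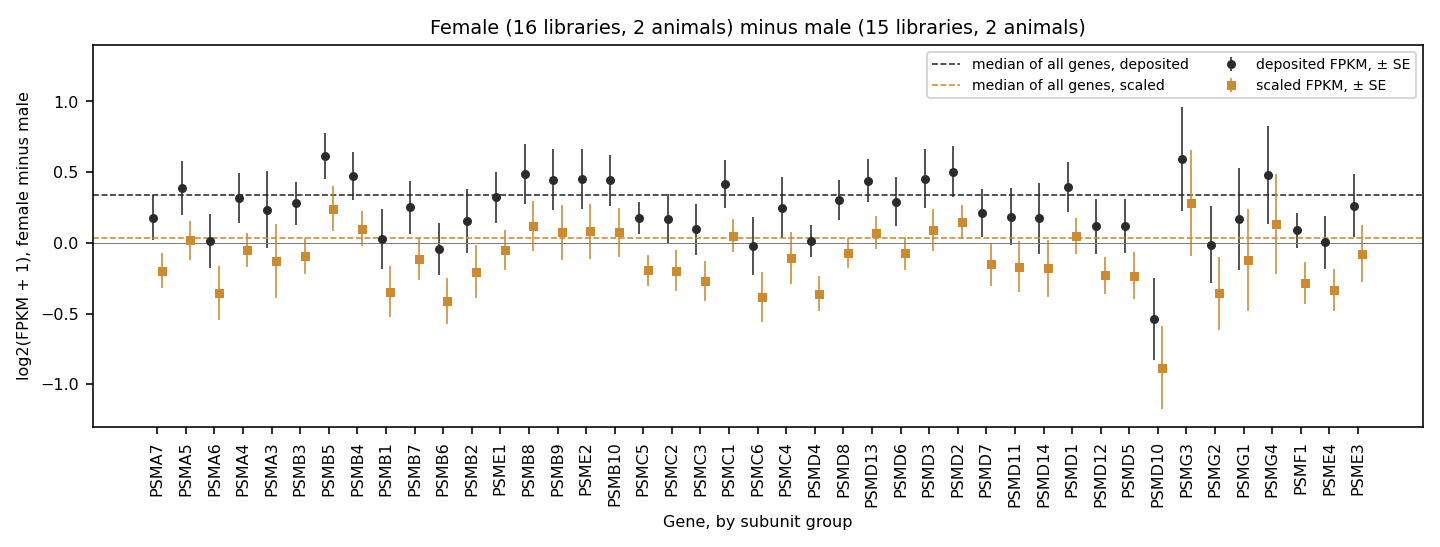
Difference between the sexes in log2(FPKM + 1), female minus male, for each of the 43 genes, from deposited (dark) and scaled (orange) values; whiskers are SE and dashed lines are medians over all genes. The members have a median of 0.25 in deposited values, below the 0.34 of all genes, and of -0.12 in scaled values, below 0.04.

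Other genes of the pathway were counted in the same fits, beside the same background. These fits included the July and August libraries of Pele, where TAP1 and IRF1 were highest, and were not repeated without them for these genes. In deposited values, 12.1% of all genes were called higher in females. So were 4 of the 27 partner genes, a share close to this background. These were UBA1, the main ubiquitin-activating enzyme (log2 difference 0.88 ± 0.20, adjusted p = 0.00597), KIAA0368 (0.54 ± 0.15, adjusted p = 0.0197), VCP (0.47 ± 0.15, adjusted p = 0.0348) and the ubiquitin receptor ADRM1 (0.50 ± 0.17, adjusted p = 0.0403). Females were also higher in 5 of the 9 MHC class I loading genes, among them TAPBP (0.84 ± 0.24, adjusted p = 0.0238) and TAP1 (0.78 ± 0.24, adjusted p = 0.0283), and in 4 of the 10 interferon regulators, among them IRF9 (0.73 ± 0.19, adjusted p = 0.0125). After scaling, 0.593% of all genes were called higher and 1.82% lower in females. None of the MHC class I loading genes or interferon regulators was then called. The partner genes had 2 calls, both lower in females, for the ubiquitin precursor RPS27A (-0.89 ± 0.22, adjusted p = 0.0188) and for ZFAND5 (-0.69 ± 0.16, adjusted p = 0.0105). Among the 4 animals, 10.3% of all genes were called in deposited values. Those calls held 1 partner gene (UBA1, adjusted p = 0.0318), 3 loading genes including TAP1 (adjusted p = 0.0205) and 4 interferon regulators including IRF1 (adjusted p = 0.0125). After scaling these counts were 2, 0 and 4, beside 7.35% of all genes.

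No member passed the test of season. Between summer and winter limma called 0 of 9610 genes, a background of 0%, with 285 at an unadjusted p under 0.05 and 0 of the 43 members among them. PSME2 had the largest difference of the immune members. It was at 73.6 to 315 FPKM in summer (median 106) and 42.6 to 156 FPKM in winter (median 89.0), with a log2 difference of 0.61 ± 0.32 (SE, adjusted p = 0.999). The other 4 immune members lay between 0.07 (PSME1) and 0.22 (PSMB9). Without the July and August libraries of Pele, PSMB8 was at -0.33, PSMB9 at -0.26, PSMB10 at -0.23 and PSME1 at -0.15, so their direction rested on these libraries. The difference of PSME2 kept its sign over 11 alternatives, which included this one, but ran from 0.22 to 0.70. The median over the 38 other members was -0.13, beside -0.04 for all genes. The 9 MHC class I loading genes, 10 interferon regulators and 27 partner genes likewise had 0 calls.

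None of the ratios of the catalytic pairs passed the test of season, an exact two-sided permutation of season within animals over 16 libraries with adjustment over the 3 pairs. The log2 ratio of PSMB9 to PSMB6 averaged 1.41 ± 1.19 (SD, n = 8) in summer and 0.97 ± 0.42 in winter, a within-animal difference of 0.41 (exact permutation p = 0.307, adjusted p = 0.922). For PSMB10 to PSMB7 the difference was 0.02 (exact permutation p = 0.936, adjusted p = 0.936), and for PSMB8 to PSMB5 it was -0.10 (exact permutation p = 0.785, adjusted p = 0.936).

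Within females, within males and for the female minus male contrast of the seasonal changes, limma again called 0 genes, with 481, 149 and 233 at an unadjusted p under 0.05 and 1, 1 and 0 members among them. The seasonal change of PSMB9 was 0.60 ± 0.36 in females and -0.16 ± 0.36 in males, a difference of 0.76 ± 0.51 (SE, adjusted p = 1.000). The 3 summer libraries of Pele hold the 2 libraries described above, and Keo has only 1 summer library. An annual cosine fitted over all 31 libraries also gave 0 calls, with 729 genes and 4 members at an unadjusted p under 0.05. These members were PSME2, PSME3, PSMA3 and PSMD14, each with an adjusted p of 0.643.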

How the data were processed

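RNA from whole blood of 4 dolphins was depleted of globin transcripts and sequenced (31 libraries). The authors trimmed reads with Trimmomatic, mapped them with Bowtie2 2.2.4 to the Ensembl dolphin genome turTru1 and estimated FPKM with RSEM 1.2.18, per the labels and the study's methods. RSEM divides reads shared by similar transcripts by estimation. The deposited FPKM table holds genes with a mean of at least 1 FPKM. A second deposited FPKM table, from TopHat2 2.3.13 and Cufflinks 2.2.0, served as an alternative. A de novo table without gene symbols and 4 tables of the authors' own comparisons (fold changes and posterior probabilities) were not used. Depth is unknown and could not be recovered from low values, so no counting errors are given.

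Groups, sexes, ages and dates came from the labels. The test was limma 3.58.1 (R 4.3.3, eBayes with trend) with two-sided p-values from log2(FPKM + 1), adjusted over the 9610 genes by the Benjamini-Hochberg method, and a threshold of 0.05. Fold changes on this scale understate changes of low genes. The scripts were tested on simulated data. Alternatives were median-ratio scaling, a pseudocount of 0.1, genes with a mean of at least 5 FPKM, Cufflinks values, leaving out each library, each animal or the July and August libraries of Pele, and animal as a block or as means. Leaving out each animal in the F test among animals, and scaling without the 2 libraries of Pele in that test, were added after seeing the data. The 8 genes described in full were PSMB8, PSMB9, PSMB10, PSME1, PSME2 and PSMB5, PSMB6, PSMB7, besides the highest and lowest gene of each subunit list, each called member, at most 4 called genes of each other list and the 3 most similar genes of each immune member. Other genes named among markers, at 0 or at a high level, were chosen after their values were seen. The members and all lists were chosen with earlier results of these data known. All 43 symbols were found in the RefSeq table. No 2 libraries held identical values. The values of 1 listed gene are not reported here.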

Additional observations from a re-analysis of the deposited data

Results flagged for a closer look

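In 44 groups (8 genes and 3 ratios in each of 4 animals), 4 single libraries lay farther from the rest of their animal than Dixon's 5% criterion allows. Chance gives about 1 such group in 20. PSMB10 in the July library of Hua was 62.7 FPKM, with the other 7 libraries at 35.9 to 47.2 FPKM. The PSMB9/PSMB6 ratio in the April library of Kai was 3.19, with the others at 1.52 to 2.01. The PSMB10/PSMB7 ratio in the February library of Kai was 1.97, with the others at 0.475 to 1.01. The PSMB8/PSMB5 ratio in the December library of Keo was 2.17, with the others at 0.530 to 1.36. Neither the July nor the August library of Pele was among the 4. The criterion uses the gap between an extreme value and the nearest value of that animal. A pair of high libraries from the same animal can therefore hide each other, so it cannot decide whether these libraries of Pele stood apart.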

How the results depend on the processing

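The season comparisons, the difference of the seasonal change and the cosine fit gave 0 called members under every alternative run. Without 1 library, 1 to 5 members were called for sex: 1 without Hua March, October or December, Kai February, April, July or September, Keo February, May, June, August, November or December, or Pele February, May, July, September or December, 4 without Hua April, Kai December or Keo March, and 5 without Keo April. The sex count (2) was 0 after scaling, with scaling and animal as a random block, with animal means and without Pele, 1 with Cufflinks values, without the July and August libraries of Pele, without Kai and with animal as a random block, 4 among genes of at least 5 FPKM and 5 without Hua, where neither PSMB5 nor PSMD13 was called. Without Keo it was 3 (PSMB8, PSMB9 and PSMB10). The count among animals (4) was 1 after scaling (PSME1), without the July and August libraries of Pele (PSME1) and without Kai (PSMB10), 2 without Hua and 2 with scaling and without these 2 libraries (PSMD4 and PSME1), 0 without Pele, and 2 to 8 without 1 library. In females minus males, PSME1 turned to -0.051 after scaling, -0.038 with scaling and the random block and -0.038 without Kai, PSMB7 to -0.12, -0.11 and -0.0066 in the same settings, and PSMB6 from -0.04 to 0.0045 without the 2 libraries of Pele, 0.19 without Hua and 0.056 without Keo. In summer minus winter, without the July and August libraries of Pele, PSMB5 turned to -0.056, PSMB8 to -0.33, PSMB9 to -0.26, PSME1 to -0.15 and PSMB10 to -0.23, and without Pele they were at -0.016, -0.41, -0.40, -0.14 and -0.15. The log2 PSMB10/PSMB7 difference turned to -0.024 with Cufflinks values and -0.26 without the 2 libraries, and PSMB9/PSMB6 to -0.054 without them. Without 1 library, ranges were -0.13 to 0.20 for PSMB10/PSMB7, -0.22 to 0.13 for PSMB8/PSMB5, -0.12 to 0.015 for PSMB6 by sex and, by season, -0.0088 to 0.34 for PSMB10, -0.054 to 0.25 for PSMB5, -0.16 to 0.27 for PSMB7, -0.11 to 0.33 for PSMB8 and -0.091 to 0.27 for PSME1. The cause of these changes was not tested. After scaling, 2.41% of all genes were called for sex and 7.35% among animals. For the other alternatives of these 2 comparisons the share of all genes is not given. Changes in the counts of members therefore cannot be set against the background there. Of 808 values of named genes under all alternatives, 686 kept their direction and side of the threshold. The seasonal comparisons were also fitted with animal as a fixed block, which changed no call.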
